A study of Arabidopsis thaliana with 102 samples.

Results

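The 100 genes most lowered in Col-0 seedlings of Arabidopsis thaliana right after treatment with tunicamycin (Tm) were followed across 3 genotypes and 24 h of recovery. They were chosen from the Col-0 libraries at 0 h of recovery, as the genes with the lowest difference in mean log2(FPKM + 1) between Tm and DMSO, the solvent used as mock treatment, among the 14810 genes with a mean of at least 5 FPKM under DMSO. FPKM counts sequenced fragments relative to transcript length and library size, and 34133 genes were listed in all. The chosen genes had differences from -5.17 to -1.41, with a median of -1.73. The last gene taken was AT4G30320 at -1.406, and the first left out was EXT13 at -1.406, so the limit of the list falls between nearly equal values. Those Col-0 values at 0 h set the membership and are given only as a description. Of the 100 genes, 76 encode proteins, and 24 are snoRNA (9), miRNA (5), tRNA (3), lncRNA (1) or pseudogene (4) loci or have no entry in the reference (2).

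Seedlings were 5 days old when they were moved to liquid medium with Tm at 500 ng/mL or with DMSO alone for 6 h, and they then recovered on medium without the drug for 0, 12 or 24 h. The groups compared are Tm-treated against DMSO-treated seedlings of bzip28-2, bzip60-2 and Col-0 at each time-point. Both mutants are insertion lines in the Col-0 background, described in the labels as knockouts of 1 transcription factor each. Each of the 18 RNA-seq groups had 3 biological replicates, each a pool of 12 whole seedlings. A lower level can thus not be told apart from a smaller share of the cells that express a gene. ChIP-seq peaks, sites of protein binding to DNA, came from transgenic seedlings with a green fluorescent protein (GFP) fusion. GFP-bZIP28 was expressed constitutively in Col-0, and GFP-bZIP60 from the bZIP60 promoter in bzip60-2.

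Tm blocks N-glycosylation, the transfer of a sugar chain to asparagine residues of proteins that enter the endoplasmic reticulum (ER), and unfolded proteins then accumulate there. Plants answer with the unfolded protein response, in which the ER membrane protein IRE1 splices the mRNA of the transcription factor bZIP60, and the membrane-bound factor bZIP28 moves to the Golgi and is cut free. IRE1 is also known to degrade mRNAs that are translated at the ER membrane, most of which encode proteins of the secretory pathway, a process called regulated IRE1-dependent decay. No library here lacked IRE1, so dependence on IRE1 was not tested.

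Depth differed little among the 54 RNA-seq libraries. It ran from 0.776 to 1.37 times the median as read from the steps of the FPKM values, and the FPKM summed to between 819066 and 918448. The transcripts of the disrupted genes were present in both mutants, with 10.4 to 28.6 FPKM of bZIP28 in Tm-treated bzip28-2 against 14.9 to 26.2 FPKM in Tm-treated Col-0. bZIP60 had 69.6 to 148 FPKM in Tm-treated bzip60-2 against 145 to 232 FPKM in Tm-treated Col-0, so these transcript levels do not by themselves check the genotype labels. The responses did differ, with log2 fold changes of bZIP28 (AT3G10800) at 12 h of 0.13 in bzip28-2 against 1.26 in Col-0 (difference -1.13, adjusted p = 0.0115) and of bZIP60 (AT1G42990) of 2.17 in bzip60-2 against 3.09 in Col-0 (difference -0.91, adjusted p = 0.0446). The 11 ER chaperone genes looked at as a check on the treatment were called higher after Tm in 9 cases in bzip28-2 and 11 cases in bzip60-2 at 0 h. Most root markers also had lower levels after Tm. The summed FPKM of 9 root marker genes at 0 h was 737.4 to 1069 after Tm against 2087 to 2499 after DMSO in bzip28-2, 1001 to 1128 against 2230 to 2579 in bzip60-2 and 805.5 to 1055 against 2141 to 2467 in Col-0. PYK10, a root and hypocotyl beta-glucosidase, made up most of that sum, and without it the Col-0 sums were 82.3 to 100.4 after Tm against 138.7 to 156.8 after DMSO. The transcription factors SCR and SHR, which specify root ground tissue, had log2 fold changes between -0.30 and -0.07 at 0 h in the 3 genotypes. The nitrate transporter NRT2.1 went the other way, with 0.34 in bzip28-2 and 0.59 in bzip60-2 and a value above 0 in Col-0 too, and WER had 0.23 in bzip28-2. No root marker and none of the 6 leaf markers was at 0 in any library, and the part of a changed tissue makeup in the values below was not tested.

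Most of the proteins encoded by the members begin with a signal peptide, the hydrophobic start that directs a protein into the ER. A rule on the translated coding sequences (10 residues near the start with a mean Kyte-Doolittle hydrophobicity of at least 2.0 and no charged residue, followed by a small residue where a signal peptidase could cut) was met by 54 of 76 proteins (71.1%), against 16.5% of the 20869 proteins of all genes tested. A further 12 members had a membrane-spanning stretch after residue 45 and no signal peptide, and 10 had neither. Without a later membrane stretch or an ER retention signal, 43 members (56.6%) were read as secreted, against 9.64% of all proteins tested. The rule found 96% of expansins, 93.1% of xyloglucan endotransglucosylases (XTH) and 3.26% of cytosolic ribosomal proteins. It found 81.3% of class III peroxidases and 88.2% of lipid transfer proteins, and 61.3% and 40.8% of these 2 families were read as secreted. The shares of members at a limit of 1.6 or 2.4 were 71.1% and 64.5%. An N-glycosylation motif (asparagine, any residue but proline, then serine or threonine) occurred in 47 of 76 members (61.8%) and in 78.8% of all proteins tested. The members were shorter, with a median of 244 residues against 373. Among proteins with a signal peptide, 59.3% of the members and 75.9% of all those tested held the motif. Thus signal peptides were more frequent among the members than among all proteins, while glycosylation motifs were less frequent.

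The coding starts of the 6 members with the lowest response among those with a signal peptide show this shared feature. Each is the first 90 bases of the coding sequence from RefSeq on TAIR10.1, written from the start codon, and capitals mark the codons of the hydrophobic window of 10 residues. AT3G16670 lies on chromosome 3 from 5681500 to 5681589 of the plus strand, XTH26 on chromosome 4 from 14244336 to 14244425 of the plus strand, AT2G43620 on chromosome 2 from 18094936 to 18095025 of the minus strand, XTH13 on chromosome 5 from 23303960 to 23304049 of the minus strand, AT4G22460 on chromosome 4 from 11839472 to 11839561 of the minus strand and AT5G46890 on chromosome 5 from 19036731 to 19036820 of the minus strand.
AT3G16670: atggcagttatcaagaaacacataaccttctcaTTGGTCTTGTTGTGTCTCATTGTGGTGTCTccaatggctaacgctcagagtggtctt
XTH26: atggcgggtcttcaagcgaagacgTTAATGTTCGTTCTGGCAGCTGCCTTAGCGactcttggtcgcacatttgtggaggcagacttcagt
AT2G43620: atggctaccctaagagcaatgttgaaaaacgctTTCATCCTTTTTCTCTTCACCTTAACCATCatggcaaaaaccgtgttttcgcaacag
XTH13: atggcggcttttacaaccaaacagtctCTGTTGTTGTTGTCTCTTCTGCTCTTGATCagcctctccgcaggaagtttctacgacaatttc
AT4G22460: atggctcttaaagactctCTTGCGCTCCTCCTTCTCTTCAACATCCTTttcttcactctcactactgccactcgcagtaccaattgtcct
AT5G46890: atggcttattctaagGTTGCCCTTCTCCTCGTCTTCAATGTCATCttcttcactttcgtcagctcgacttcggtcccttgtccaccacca
In all 6 the window starts between residues 6 and 12. AT5G46890 has no N-glycosylation motif in 127 residues, XTH26 has 4 in 292 residues, and the other 4 proteins have 1 or 2.

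**Figure D1:**
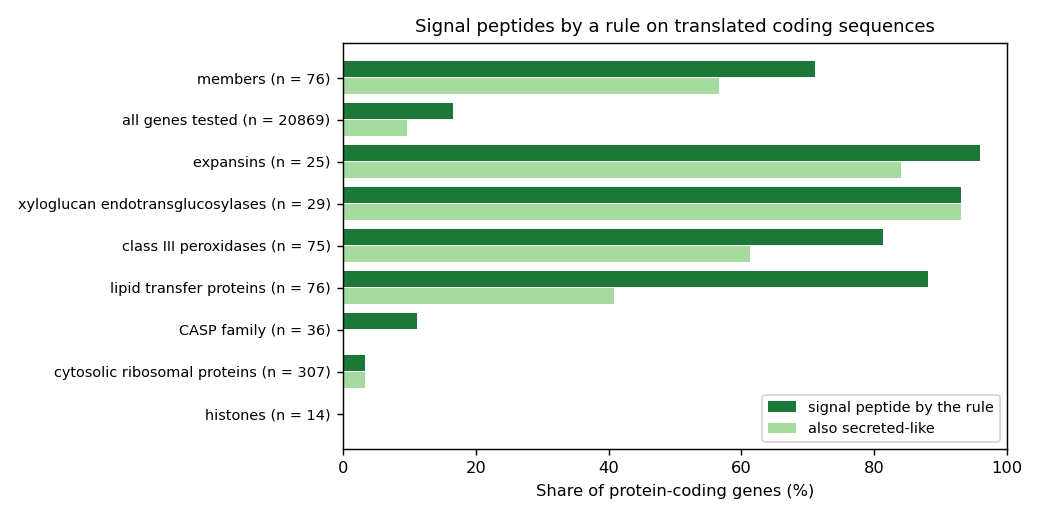
Share of protein-coding genes, in percent, that meet the signal peptide rule (dark bars) and are also read as secreted (light bars), for the 76 protein-coding members, all 20869 proteins tested and 7 families as a check on the rule. The members reach 71.1% and 56.6%, against 16.5% and 9.64% of all proteins tested.

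Members with and without a signal peptide were set side by side. The median log2 fold changes of the 54 with and the 22 without one were -1.97 and -1.82 in bzip28-2 at 0 h, -1.33 and -1.64 at 12 h and -1.55 and -1.62 at 24 h. In bzip60-2 they were -1.56 and -1.76 at 0 h, -1.12 and -1.24 at 12 h and -0.88 and -0.97 at 24 h. At 0, 12 and 24 h, 34, 32 and 31 of the 54 were called lower in bzip28-2, and 10, 13 and 14 of the 22. In bzip60-2 these were 20, 22 and 11 of 54, and 8, 7 and 0 of 22. In Col-0 at 12 and 24 h they were 18 and 2 of 54, and 4 and 0 of 22. Of all genes, 0.581%, 5.76% and 1.8% were called lower in bzip28-2 and 0.338%, 6.13% and 0.974% in bzip60-2. In Col-0 the shares were 1.78% at 12 h and 3.22% at 24 h. The comparison of members with and without a signal peptide is a description with no test. The 22 include the class III peroxidase AT4G26010, so the rule may miss some signal peptides. Genes outside the list were then looked at in the same way, a comparison chosen after the data had been seen. Of 3384 non-members with a signal peptide, 35.0% had all 3 Tm libraries below all 3 DMSO libraries in bzip28-2 at 0 h, against 11.8% of 17409 without one. In bzip60-2 at 0 h these shares were 31.4% and 13.4%. The medians of the log2 fold change were small in both sets, -0.19 and 0.02 in bzip28-2 and -0.17 and -0.05 in bzip60-2.

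The fall at 0 h recurred in both mutants, whose libraries were not used to choose the members. In bzip28-2 the median log2 fold change of the 76 protein-coding members at 0 h was -1.97, so that a gene at the median was left at 25.6% of its DMSO level, on the scale of FPKM + 1. In bzip60-2 the median was -1.63 (32.2%), and in Col-0, where the members were chosen, it was -1.69 (31.1%). Over all 21864 genes tested the medians lay between -0.06 and 0. All 3 Tm libraries were below all 3 DMSO libraries for 73 of 76 coding members in bzip28-2 and for 72 in bzip60-2, where 15.5% and 16.2% of all genes tested did so. With limma on log2(FPKM + 1), at an adjusted p under 0.01 and a change of more than 1 on the log2 scale, 45 of the 100 members were called lower in bzip28-2 (0.581% of all genes) and 29 in bzip60-2 (0.338%). At 0 h 0 members were called higher in bzip28-2 (0.938% of all genes) and 0 in bzip60-2 (0.512%). The counts were 8 to 24 and 3 to 12 when any 1 of the 6 libraries was left out, while the medians over all members stayed between -1.96 and -1.72 in bzip28-2 and between -1.62 and -1.52 in bzip60-2.

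The mutants were then set against each other at 0 h. The difference in response between bzip60-2 and bzip28-2, tested by limma from the fold changes of single replicates, was past an adjusted p of 0.05 for 0 members (0.0915% of all genes in either direction), and 19 members had an unadjusted p under 0.05. The share of all genes at that unadjusted p is not given here. The median difference over the members was 0.27.

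**Figure D2:**
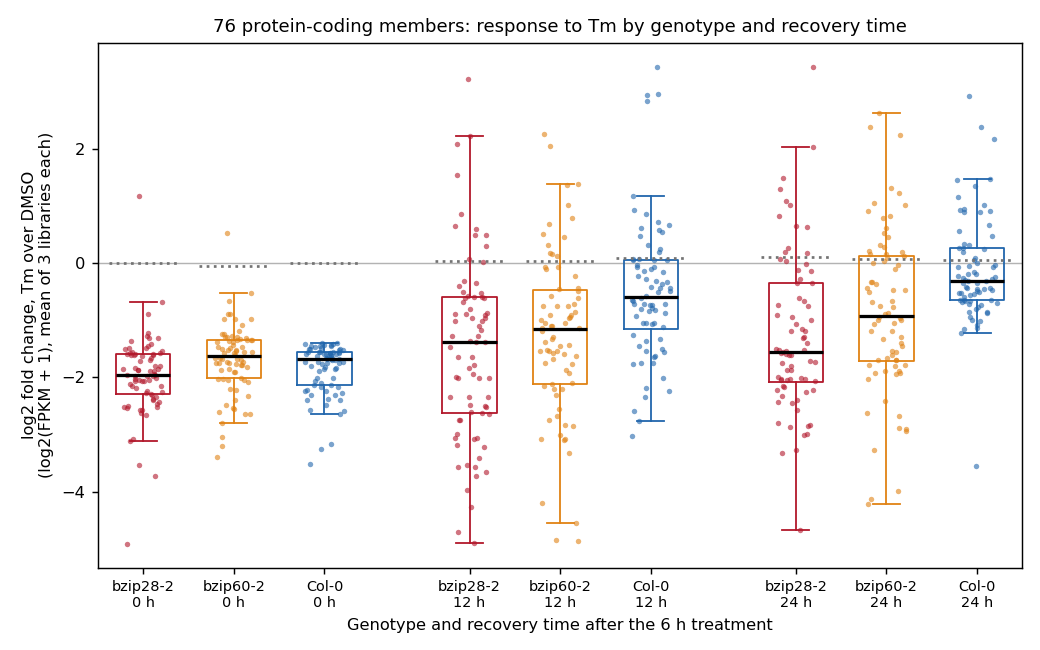
Log2 fold change (Tm/DMSO, on FPKM + 1) of the 76 protein-coding members in bzip28-2, bzip60-2 and Col-0 at 0, 12 and 24 h of recovery, with boxes from the lower to the upper quartile, the median as a black line, each gene as a point and the median of all genes tested as a dotted line. The medians at 24 h are -1.55 in bzip28-2, -0.92 in bzip60-2 and -0.32 in Col-0.

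During recovery the medians of the coding members came back nearer to the DMSO level in Col-0 than in either mutant. The coding members had median log2 fold changes of -1.38 at 12 h and -1.55 at 24 h in bzip28-2, -1.16 and -0.92 in bzip60-2, and -0.59 and -0.32 in Col-0, while all genes had medians between 0.03 and 0.11. In percent of DMSO these are 38.3% and 34.1% in bzip28-2, 44.7% and 52.8% in bzip60-2, and 66.4% and 79.9% in Col-0. At 24 h 49 coding members were still lower by at least 1 on the log2 scale in bzip28-2, 34 in bzip60-2 and 6 in Col-0. Those at least 1 higher numbered 6, 7 and 8. Over all 100 members the medians at 24 h were -1.45 in bzip28-2, -0.45 in bzip60-2 and -0.32 in Col-0.

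By the test, 47 members were lower in bzip28-2 at 12 h (5.76% of all genes) and 45 at 24 h (1.8%). In bzip60-2 they numbered 30 at 12 h (6.13%) and 11 at 24 h (0.974%). In Col-0 they were 24 at 12 h (1.78%) and 2 at 24 h (3.22%). The share called in Col-0 at 24 h is thus near that of all genes, and 7 members were called higher there (7.39%). Members called higher numbered 3 at 12 h in Col-0 (7.18%), 4 and 2 at 12 and 24 h in bzip28-2 (8.65% and 3.93%), and 4 and 6 in bzip60-2 (8.08% and 5.36%). Leaving out 1 library at a time gave 38 to 46 and 9 to 42 for bzip28-2, 17 to 23 and 1 to 22 for bzip60-2, and 10 to 17 and 1 to 4 for Col-0. At 24 h in bzip28-2 the 9 came without Tm replicate 1, and 20 and 23 without DMSO replicates 3 and 1. The number of coding members with all 3 Tm libraries below all 3 DMSO libraries at 24 h was 55 in bzip28-2 (18.5% of all genes), 38 in bzip60-2 (17.9%) and 29 in Col-0 (21.6%). The 9 root markers had median log2 fold changes at 24 h of -1.11 in bzip28-2, -0.54 in bzip60-2 and -0.39 in Col-0, or -1.05, -0.46 and -0.46 without PYK10. The 6 leaf markers had medians of -1.57, -1.04 and -1.62 in the same order. Their part in the values was not tested.

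**Figure D3:**
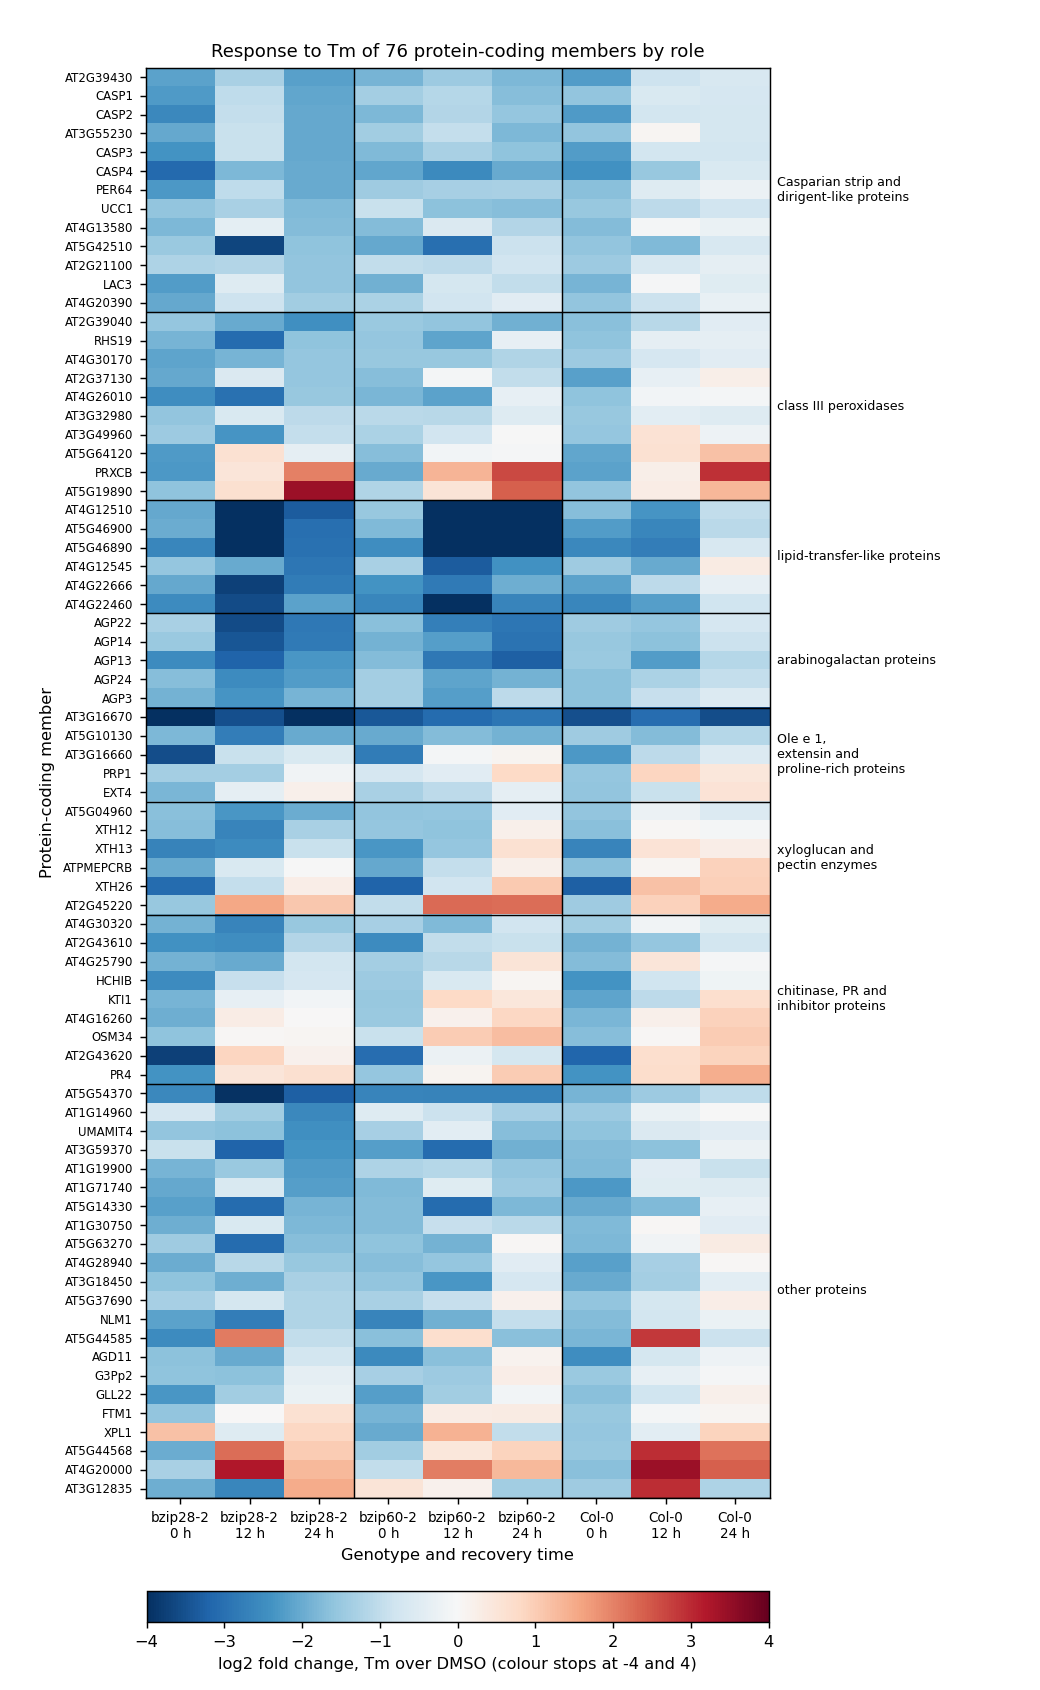
Mean log2 fold change (Tm/DMSO) of each protein-coding member (one line a gene, grouped by role) in bzip28-2, bzip60-2 and Col-0 at 0, 12 and 24 h, with blue for lower and red for higher after Tm. Lipid-transfer-like and arabinogalactan proteins stay lower in both mutants at 24 h, with medians of -2.93 and -2.33 in bzip28-2, while chitinase, PR and inhibitor proteins run from -1.52 to 0.64 there.

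The difference between genotypes was then tested on the response itself. At 12 h 26 members had a lower log2 fold change in bzip28-2 than in Col-0 (2.09% of all genes) and 0 a higher one (1.19%), with a median difference of -0.70 over all members. In bzip60-2 against Col-0 at 12 h, 12 were lower (2.3%) and 2 higher (1.14%), with a median of -0.71. The Col-0 libraries at 12 h enter both comparisons. The 9 root markers, which are not members, had median log2 fold changes at 12 h of -1.37 in bzip28-2, -1.16 in bzip60-2 and -0.36 in Col-0. EXPA7, EXPA18, COBL9 and PRP3 were also called lower in bzip28-2 than in Col-0 then, with differences from -2.09 to -1.33. PYK10, SCR, SHR, WER and NRT2.1 were not called there, and no root marker was called in bzip60-2 against Col-0. The part of tissue makeup was not tested. At 24 h the median difference over the members was -1.09 in bzip28-2 (0.03 over all genes), and 86 of 100 members were below 0. In limma 0 members, and 0% of all genes, passed an adjusted p of 0.05 there, while 54 members had an unadjusted p under 0.05. With the replicate number left out of the fit, 26 members passed there. In bzip60-2 at 24 h the median was -0.29 (-0.67 over the coding members), 1 member passed (0.00457% of all genes), and 27 had an unadjusted p under 0.05. Without the number, 22 members passed in bzip60-2 at 12 h and 7 at 24 h. The shares of all genes at an unadjusted p under 0.05, or without the number, are not given here. These counts of members can thus not be set against them. The 1 member that passed in bzip60-2 at 24 h with the number is the pseudogene AT1G45236. It read 106, 109.8 and 69.5 FPKM in Tm-treated bzip60-2 at 24 h against 0 in the DMSO libraries. In any other group it was seen in at most 1 library. Leaving out 1 pair of libraries gave 0 to 10 members for bzip28-2 and 0 to 11 for bzip60-2 at 12 h. The number varied with the pair left out, but every such fit also holds fewer fold changes. The part of that in the lower counts was not tested. The medians stayed between -1.09 and -0.70 and between -0.97 and -0.49.

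The 3 members with the lowest adjusted p in bzip28-2 against Col-0 at 12 h encode proteins of different kinds, each with a signal peptide by the rule. AT4G25790, of the cysteine-rich CAP family that holds pathogenesis-related protein 1, had 0.231, 0.34 and 0.6 FPKM after Tm against 4.29, 4.47 and 5.06 FPKM after DMSO in bzip28-2, and 9.89, 8.37 and 6.11 against 5.49, 7.03 and 4.16 FPKM in Col-0. The Tm libraries were thus all below the DMSO libraries in the mutant and overlapped with them in Col-0, and the response differed by -2.50 (standard error 0.16), adjusted p = 0.0115. The lipid-transfer-like AT4G22666 had 0.456, 0.628 and 0.901 FPKM after Tm against 19.9, 18.1 and 25.5 after DMSO in bzip28-2, and 11.3, 11.8 and 7.91 against 21.8, 22.4 and 22.2 in Col-0. It was low after Tm in both, further in the mutant, with a difference of -2.68 (standard error 0.18), adjusted p = 0.0115. The class III peroxidase AT3G49960 had 2.28, 2.21 and 4.26 FPKM after Tm against 18.8, 17.6 and 18.9 after DMSO in bzip28-2, and 29.9, 33.5 and 22.4 against 19.2, 24 and 14.2 in Col-0. It lay below DMSO in every mutant pair and overlapped with DMSO in Col-0, with a difference of -2.92 (standard error 0.20), adjusted p = 0.0115.

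**Figure D4:**
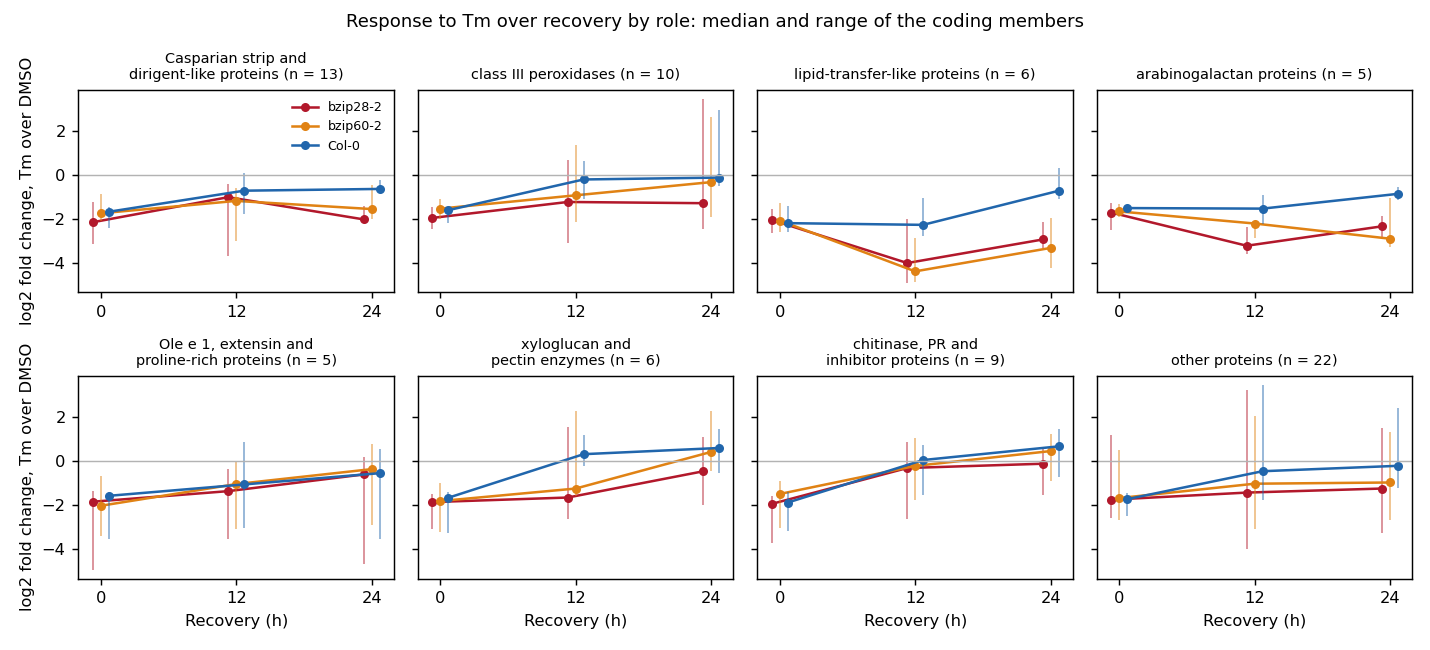
Median log2 fold change (Tm/DMSO) at 0, 12 and 24 h of recovery for the protein-coding members of each role in bzip28-2, bzip60-2 and Col-0, with vertical lines from the lowest to the highest member. Casparian strip and dirigent-like members reach medians of -2.02 in bzip28-2, -1.55 in bzip60-2 and -0.64 in Col-0 at 24 h.

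The largest group with a shared role held 13 members. It joins proteins of the Casparian strip, the lignin band that seals the root endodermis, with dirigent-like proteins, which guide the coupling of lignin precursors. The CASP-like AT4G20390 was also placed in it, so counts of this role are not counts of strip genes alone. The roles were assigned from product names and known families after the members had been seen. CASP1 to CASP4, scaffold proteins of the membrane domain where the strip forms, were all members, as were PER64, a peroxidase that acts in the strip, the laccase LAC3 and uclacyanin UCC1. CASP1 had 4.1, 4.8 and 5.19 FPKM after Tm against 29.2, 28.2 and 22.3 after DMSO in bzip28-2 at 0 h, and 10.14, 13.3 and 8.45 against 28.5, 27.2 and 28.7 in bzip60-2. At 24 h it had 6.34, 7.36 and 8.1 FPKM against 29.3, 31.9 and 40.8 in bzip28-2, and 21.1, 18.3 and 20.1 against 40.6, 25 and 32.5 in Col-0. Tm and DMSO libraries did not overlap in any of these 4 cases, and the gap at 24 h was wider in bzip28-2, with log2 fold changes of -2.07 (adjusted p = 0.00164) against -0.67 (adjusted p = 0.0292). The difference between them had an adjusted p of 0.0744.

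All 13 of these members were called lower in bzip28-2 at 24 h (1.8% of all genes), 0 in bzip60-2 (0.974%) and 0 in Col-0 (3.22%). In the same order, 13, 10 and 8 of them had all 3 Tm libraries below all 3 DMSO libraries. Of all genes, 18.5%, 17.9% and 21.6% did so. The responses of bzip28-2 and bzip60-2 at 24 h were not tested against each other. With 1 library left out, calls of bzip28-2 at 24 h numbered 9 to 42 over all 100 members, the 9 without Tm replicate 1. The 13 had log2 fold changes from -2.18 to -1.40 in bzip28-2, from -2.03 to -0.47 in bzip60-2 and from -0.77 to -0.25 in Col-0, so the ranges of bzip28-2 and Col-0 did not meet. PER64 had 3.74, 2.63 and 3.61 FPKM after Tm against 15.3, 17.9 and 16.3 after DMSO in bzip28-2 at 24 h, and 13.5, 10.4 and 13 against 18.6, 11.9 and 14.4 in Col-0, where the libraries overlapped. At 12 h the role had come partway back, with medians of -1.02, -1.18 and -0.72 in the 3 genotypes in the same order. In bzip28-2 the response at 12 h was higher than at 0 h for LAC3 by 1.74 (standard error 0.21), adjusted p = 0.00408. The dirigent-like AT5G42510 went the other way, with 0.23, 0.252 and 0.247 FPKM after Tm against 13, 14.6 and 16.8 after DMSO in bzip28-2 at 12 h. Its response was lower there than at 0 h, with a difference of -2.16 (standard error 0.16), adjusted p = 0.00134. Of 11 Casparian strip genes tested from a list added later, 7 of which are members chosen for their fall in Col-0, 9 were called lower in bzip28-2 (0.581% of all genes) and 3 in bzip60-2 (0.338%) at 0 h. MYB36, the transcription factor that switches on these genes, had log2 fold changes of 0.15 in bzip28-2, -0.37 in bzip60-2 and -0.33 in Col-0. The 4 CASP genes are close in sequence, and reads shared among them could be split by the authors' counting.

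Lipid-transfer-like proteins, small secreted proteins with a lipid-binding fold, were the role that stayed lowest in the mutants. The medians over the 6 members were -2.05 at 0 h, -4.0 at 12 h and -2.93 at 24 h in bzip28-2, -2.07, -4.37 and -3.31 in bzip60-2, and -2.19, -2.27 and -0.73 in Col-0. All 6 were called lower at 12 h in each genotype. Of all genes, 5.76% were called lower then in bzip28-2, 6.13% in bzip60-2 and 1.78% in Col-0. At 24 h 6 were called lower in bzip28-2 (1.8% of all genes), 5 in bzip60-2 (0.974%) and 0 in Col-0 (3.22%). With 1 library left out, calls over all 100 members at 24 h numbered 9 to 42 in bzip28-2 and 1 to 22 in bzip60-2. AT4G12510 had 0.0851, 0.0979 and 0.0701 FPKM after Tm against 31.4, 33.4 and 29.4 after DMSO in bzip28-2 at 12 h. In bzip60-2 it had 0.411, 0.545 and 0.598 against 26.4, 40.6 and 38.6 FPKM, and in Col-0 5.99, 3.09 and 4.65 against 29.6, 26.3 and 24.3 FPKM. The gene was almost silent after Tm in both mutants, while Col-0 kept a low level. Its response in bzip28-2 was lower at 12 h than at 0 h, with a difference of -2.84 (standard error 0.09), adjusted p = 0.000364, and that in bzip60-2 with one of -3.03 (standard error 0.22), adjusted p = 0.00181. Against Col-0 at 12 h the bzip60-2 response differed by -2.21 (standard error 0.22), adjusted p = 0.0225.

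AT4G22460, whose coding start is shown above, had 1.9, 1.76 and 0.893 FPKM after Tm against 15.8, 14.8 and 10.001 after DMSO in bzip28-2 at 0 h, and 1.24, 2.82 and 2.18 against 14.9, 17.8 and 19.8 in bzip60-2. Every Tm library was below every DMSO library, with log2 fold changes of -2.53 (adjusted p = 0.00504) and -2.61 (adjusted p = 0.00585). AT5G46890 and AT5G46900 are neighbours on chromosome 5 and close copies, so their counts are uncertain. AT5G46900 had 0.898, 0.899 and 0.953 FPKM after Tm against 41.8, 22.6 and 43.6 after DMSO in bzip60-2 at 24 h, and 19.2, 28 and 16.5 against 49.4, 37.2 and 49.5 in Col-0. The libraries did not overlap in either genotype, and the level after Tm was near 1 FPKM in the mutant and over 16 FPKM in Col-0. Its response in bzip60-2 was lower at 12 h than at 0 h, with a difference of -3.11 (standard error 0.23), adjusted p = 0.00187.

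Arabinogalactan proteins, heavily O-glycosylated proteins of the cell surface, also had medians further below 0 at 12 and 24 h in the mutants than in Col-0. The 5 members (AGP3, AGP13, AGP14, AGP22 and AGP24) had medians of -1.71, -3.21 and -2.33 at 0, 12 and 24 h in bzip28-2, -1.66, -2.21 and -2.90 in bzip60-2, and -1.51, -1.53 and -0.86 in Col-0. AGP24, one of the most abundant members, had 46.9, 53.4 and 43.6 FPKM after Tm against 165, 168 and 145 after DMSO in bzip28-2 at 0 h, and 40.5, 42 and 43.6 against 166, 201 and 239 at 24 h. In Col-0 at 24 h it had 122, 120.0 and 115 against 313, 186 and 211 FPKM. The libraries did not overlap in any of these cases, with log2 fold changes of -1.71 and -2.22 in bzip28-2 (adjusted p = 0.00113 and 0.00122) and of -0.95 in Col-0 at 24 h (adjusted p = 0.0125). AGP22 had 3.93, 2.3 and 2.53 FPKM after Tm against 46.2, 42 and 46.2 after DMSO in bzip28-2 at 12 h, and 10.5, 12.4 and 10.4 against 33.5, 37.3 and 31.2 in Col-0. Low in both, it was lower in the mutant, and the response differed by -2.03 (standard error 0.14), adjusted p = 0.0124.

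**Figure D5:**
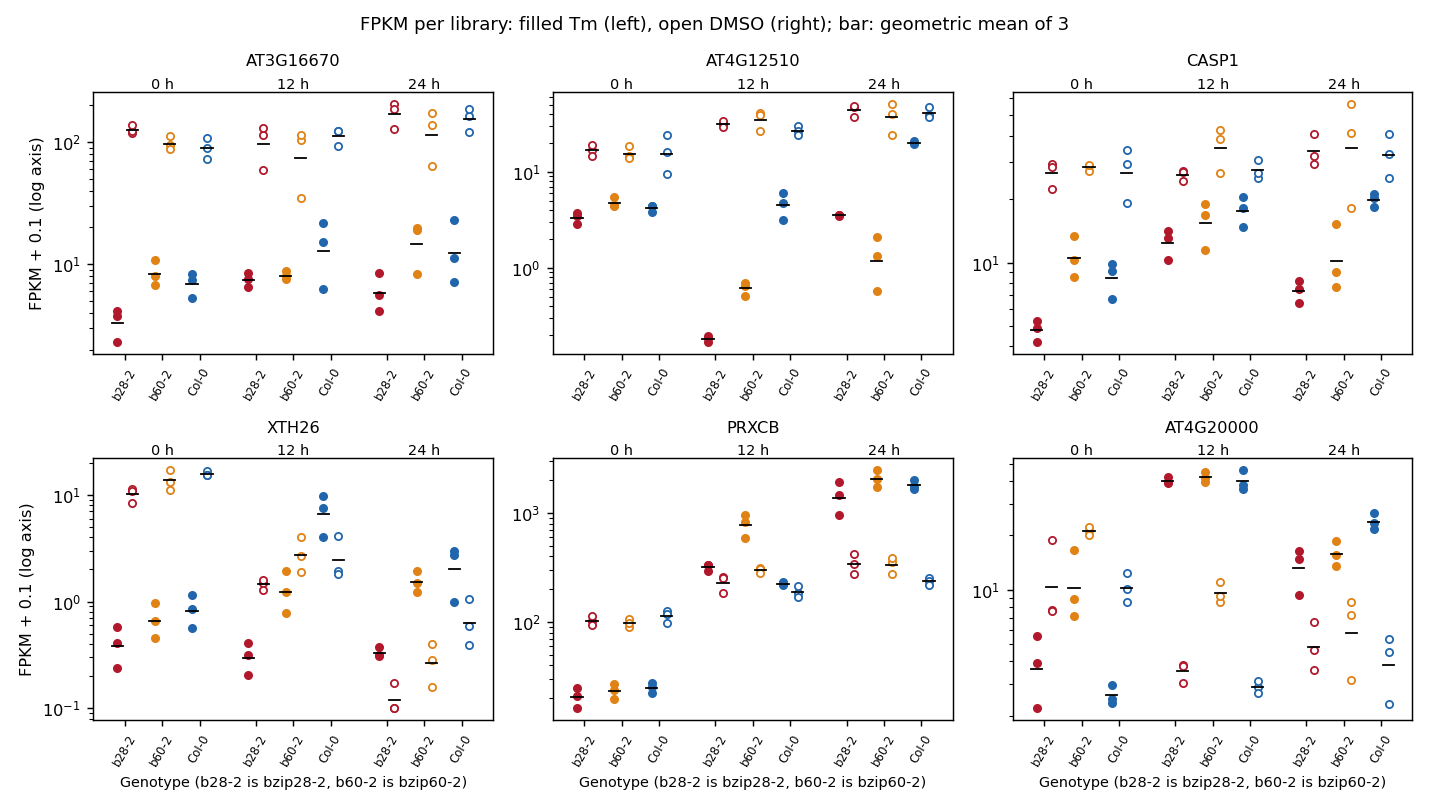
FPKM + 0.1 on a log axis in each library for 6 members in bzip28-2, bzip60-2 and Col-0 at 0, 12 and 24 h, with Tm-treated libraries (filled) left of DMSO-treated ones (open) and a bar at the geometric mean of each group. AT4G12510 falls below 1 FPKM after Tm at 12 h in all 6 mutant libraries, and PRXCB is above DMSO after Tm at 24 h in every genotype.

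Class III peroxidases, secreted enzymes that use hydrogen peroxide in the cell wall, split during recovery. The 10 members outside the Casparian strip role had medians of -1.96, -1.23 and -1.29 in bzip28-2, -1.54, -0.93 and -0.33 in bzip60-2, and -1.61, -0.21 and -0.13 in Col-0 at 0, 12 and 24 h. RHS19, AT4G26010 and AT3G49960, the first of them specific to root hairs, had lower responses in bzip28-2 than in Col-0 at 12 h, with differences of -2.72, -2.88 and -2.92. AT3G32980, among the most abundant members, had 84.4, 89.8 and 106 FPKM after Tm against 248, 301 and 286 after DMSO in bzip28-2 at 0 h, and 129, 125 and 121 against 275, 243 and 278 in bzip60-2. The libraries did not overlap, and the log2 fold changes were -1.57 (adjusted p = 0.00244) and -1.08 (adjusted p = 0.00303).

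PRXCB was below the DMSO level at 0 h and above it at 24 h in every genotype. It had 16.1, 24.9 and 20.9 FPKM after Tm against 103, 113 and 93.9 after DMSO in bzip28-2 at 0 h, and 1473, 953 and 1918 against 277, 424 and 338 at 24 h. In bzip60-2 it had 27.2, 23.8 and 19.7 against 107, 89.8 and 97.3 FPKM at 0 h, and 2502, 2038 and 1753 against 356, 387 and 274 FPKM at 24 h. Tm libraries were all below DMSO at 0 h and all above it at 24 h. In Col-0 at 24 h it had 1780.2, 1655 and 1994 FPKM after Tm against 256, 239 and 219 after DMSO, a log2 fold change of 2.92 (standard error 0.11) with adjusted p = 6.56e-05, the highest of all members there. Between 0 and 24 h its response went up by 4.65 (standard error 0.17) in bzip60-2, adjusted p = 0.000403, and at 12 h it was already up by 3.39 (standard error 0.24), adjusted p = 0.00168. PRXCB has close paralogs, and its FPKM may hold reads of them. AT5G64120, also called higher in Col-0 at 24 h, had 1043, 925 and 1035 FPKM after Tm against 350.2, 580.1 and 441 after DMSO there. At 0 h it had 46.1, 74.1 and 83.9 against 438, 310.4 and 242 FPKM in bzip28-2 and 191, 286 and 163 against 758, 570.4 and 699 FPKM in bzip60-2. It was below DMSO in all Tm libraries of both mutants then, and neither change passed the test (adjusted p = 0.0142 and 0.0239).

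AT5G19890, another peroxidase, shows a fold change that rests on the mock level. It had 5.41, 4.82 and 8.96 FPKM after Tm against 18.1, 23.6 and 21.4 after DMSO in bzip28-2 at 0 h, and 12.9, 8.88 and 12.4 against 0.0588, 0.105 and 0.246 at 24 h. The mock level was near 0 at 24 h, a log2 change of -4.27 against 0 h (adjusted p = 0.000782), and the response was up by 5.04 (standard error 0.28), adjusted p = 0.00315.

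Enzymes that remodel xyloglucan and pectin, cell wall polymers, had a median above 0 in Col-0 from 12 h on. The medians over the 6 members were -1.86, -1.65 and -0.46 in bzip28-2, -1.81, -1.25 and 0.41 in bzip60-2, and -1.67, 0.31 and 0.59 in Col-0 at 0, 12 and 24 h. XTH26 cuts and rejoins xyloglucan chains and had 0.14, 0.311 and 0.475 FPKM after Tm against 11.2, 10.7 and 8.34 after DMSO in bzip28-2 at 0 h. It had 0.564, 0.357 and 0.867 against 13.2, 11.1 and 17.1 FPKM in bzip60-2. Every Tm library was under 1 FPKM and every DMSO library over 8, with log2 fold changes of -3.08 (adjusted p = 0.000694) and -3.21 (adjusted p = 0.00218). Its mock level also went down with time, to 0, 0.0713 and 0 FPKM in bzip28-2 at 24 h, so a response higher by 3.35 there and by 4.26 in bzip60-2 (adjusted p = 0.00416 and 0.000296) compares 2 low levels at 24 h. XTH13, close in sequence to its fellow member XTH12, had 1.11, 0.153 and 0.738 FPKM after Tm against 8.77, 9.14 and 6.94 after DMSO in bzip28-2 at 12 h, and 17.3, 22.7 and 9.77 against 7.91, 16.2 and 8.81 in Col-0. It was low after Tm in the mutant and overlapped with DMSO in Col-0, and the response differed by -3.06 (standard error 0.35), adjusted p = 0.0219. AT2G45220, also named pectin methylesterase 17, was above DMSO at 12 h. It had 34.2, 39.6 and 52.8 FPKM after Tm against 13.7, 13.6 and 13.8 after DMSO in bzip28-2. The response there was higher than at 0 h by 3.05 (standard error 0.20), adjusted p = 0.0012.

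Chitinase, pathogenesis-related (PR) and inhibitor proteins, which act in defence at the cell wall, went both ways during recovery. The medians over the 9 members were -1.94, -0.32 and -0.12 in bzip28-2, -1.49, -0.22 and 0.45 in bzip60-2, and -1.88, 0.04 and 0.66 in Col-0 at 0, 12 and 24 h. Their range in bzip28-2 was -2.64 to 0.85 at 12 h, with AT4G30320 lowest, and -1.52 to 0.64 at 24 h. The chitinase-family gene AT2G43620 had 11.9, 17.6 and 15.3 FPKM after Tm against 336, 195 and 138 after DMSO in bzip28-2 at 0 h, and 327, 397 and 275 against 286, 203 and 104 at 12 h. All Tm libraries were below DMSO at 0 h, while at 12 h the DMSO libraries spread widely and overlapped with them. The response in bzip28-2 went up by 4.59 (standard error 0.51), adjusted p = 0.00335. AT4G16260, a glycosyl hydrolase of the beta-1,3-glucanase kind and one of the most abundant members, had 36.1, 39 and 38.3 FPKM after Tm against 110.4, 97.8 and 117 after DMSO in bzip60-2 at 0 h, and 225, 225 and 208 against 159, 118 and 102 at 24 h. It was below DMSO in every Tm library at 0 h and above it in every one at 24 h, and its response went up by 2.31 (standard error 0.17), adjusted p = 0.0022. The osmotin OSM34 was called higher after Tm at 24 h in bzip60-2 (1.23, adjusted p = 0.000755) and in Col-0 (1.02, adjusted p = 0.000341). HCHIB overlaps the lncRNA AT3G12502, also a member, and reads of the 2 may be mixed.

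Of the 5 Ole e 1, extensin and proline-rich members, AT3G16670 had the lowest response of all protein-coding members and stayed low in every genotype. It had 4.01, 2.21 and 3.7 FPKM after Tm against 119, 124 and 137 after DMSO in bzip28-2 at 0 h, and 10.8, 7.86 and 6.72 against 111, 94.8 and 87.2 in bzip60-2. In Col-0 at 24 h it had 11.2, 22.7 and 7.01 against 164, 120.5 and 186 FPKM. Tm and DMSO libraries were far apart in all 3 cases, with log2 fold changes of -4.91 (standard error 0.18), adjusted p = 0.000307, -3.40 (standard error 0.18), adjusted p = 0.00154, and -3.55 (standard error 0.42), adjusted p = 0.00169. Its neighbour AT3G16660 came back instead, with 11.6, 8.71 and 11.4 FPKM after Tm against 125, 141 and 133 after DMSO in bzip28-2 at 0 h, and 68.3, 90.7 and 60.6 against 91.2, 136 and 108 at 24 h. The 2 sets of libraries were apart at 0 h and nearly touched at 24 h, where the response was higher than at 0 h by 2.93 (standard error 0.19), adjusted p = 0.00428. EXT4, a structural wall protein and the member with the highest level in DMSO-treated Col-0 at 0 h, had 119, 178 and 126 FPKM after Tm against 666, 509.9 and 369 after DMSO in bzip28-2 at 0 h, and 1078, 1143 and 1004 against 631, 786 and 783 in Col-0 at 24 h. It was below DMSO in every library of the mutant at 0 h and above it in every one of Col-0 at 24 h, and neither change passed the test (adjusted p = 0.0162 and 0.0188).

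The other 22 protein-coding members had no shared role, and 8 of them met the signal peptide rule. Among them, AT4G20000, AT5G44568 and AT5G44585 were called higher after Tm at 12 h in Col-0. AT4G20000, which holds a VQ motif found in partners of WRKY transcription factors, had 39.6, 38.8 and 42 FPKM after Tm against 3.71, 3.68 and 2.92 after DMSO in bzip28-2 at 12 h. It had 39.3, 41.6 and 45.2 against 8.39, 9.15 and 10.9 FPKM in bzip60-2 and 38, 46.2 and 36.1 against 2.8, 3 and 2.58 FPKM in Col-0. Levels after Tm were alike in the 3 genotypes, and the DMSO level was highest in bzip60-2, where the response was lower than in Col-0, with a difference of -1.39 (standard error 0.12), adjusted p = 0.0213. The small uncharacterized proteins AT5G44568 and AT5G44585 may share reads, so that their counts are uncertain. AT5G44568 had 145, 92.2 and 111 FPKM after Tm against 95, 60.4 and 98.1 after DMSO in bzip60-2 at 12 h, and 212, 207 and 225 against 23.8, 34 and 24.2 in Col-0. It overlapped with DMSO in the mutant and was well above it in Col-0, and the response differed by -2.48 (standard error 0.21), adjusted p = 0.0213. AT5G44585 had a response in bzip28-2 at 12 h that was higher than at 0 h by 4.60 (standard error 0.31), adjusted p = 0.00117.

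GLL22, a GDSL-type lipase, came nearer to the DMSO level at each time-point in bzip60-2. It had 13.4, 12.5 and 13.2 FPKM after Tm against 57.9, 64.3 and 70.9 after DMSO in bzip60-2 at 0 h, 41.3, 34.6 and 47.7 against 108, 95.2 and 126 at 12 h and 57.2, 59.7 and 68.3 against 68.6, 59.4 and 71.7 at 24 h. The libraries were apart at 0 and 12 h and overlapped at 24 h, where the response was higher than at 0 h by 2.11 (standard error 0.13), adjusted p = 0.00128. The uncharacterized AT5G14330 stayed low in the mutants, with 13.1, 11.3 and 13.6 FPKM after Tm against 96, 116 and 131 after DMSO in bzip28-2 at 12 h. Its log2 fold change was -3.07 in bzip28-2, -3.09 in bzip60-2 and -1.76 in Col-0 at 12 h, each past the test. XPL1 and AT3G12835 were the 2 coding members whose Tm and DMSO libraries overlapped in Col-0 at 0 h, and their levels varied widely between replicates in every genotype.

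The 24 members that are not protein-coding rest mostly on single libraries. Of these, 15 were at 0 FPKM in at least 1 DMSO library of Col-0 at 0 h. The median SD of log2(FPKM + 1) within groups was 0.76 over the non-coding members and 0.26 over the coding ones. The snoRNA AT2G35747, first in the list, had 101, 0.000497 and 121 FPKM after Tm against 0.0124, 0.00803 and 231 after DMSO in bzip28-2 at 0 h, and 239, 0.0502 and 189.9 against 95, 383 and 89.1 in bzip60-2. Its libraries switched between near 0 and over 80 FPKM within groups, with no separation by treatment. The snoRNA AT4G02555, second in the list, was at 0 in all 3 Tm and all 3 DMSO libraries of bzip28-2 at 0 h. MIR167b was at 0 FPKM in all Tm libraries of both mutants at 0 h and had 0, 17.5 and 0 FPKM after DMSO in bzip28-2 and 0, 0 and 24.8 in bzip60-2. MIR157a and the tRNA AT1G28720 were likewise detected in some libraries of a group and at 0 in others. Libraries were made from polyadenylated RNA, and these loci are short. At 0 h 1 of the 24 was called lower in bzip28-2 and 1 in bzip60-2, against 44 and 28 of the 76 coding members.

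The share of members whose response differed between time-points was in several cases near that of all genes. In bzip28-2 the response at 12 h was higher than at 0 h for 32 members and lower for 14 (18.5% and 12.8% of all genes), and at 24 h higher for 18 and lower for 7 (5.85% and 2.83%). In bzip60-2 it was higher at 12 h for 19 and lower for 5 (14.8% and 7.32%), and higher at 24 h for 26 and lower for 2 (9.58% and 1.55%). The members with a lower response at 12 h included lipid-transfer-like genes in both mutants and AGP14, AGP22 and AGP24 in bzip28-2, and those with a higher one included PRXCB, AT2G45220 and the chitinase AT2G43620. Leaving out 1 pair of libraries gave 5 to 32 members in either direction for bzip28-2 at 24 h and 13 to 26 for bzip60-2.

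Mock-treated seedlings also changed with time, which enters every response at 12 and 24 h. In bzip28-2 under DMSO, 9 members differed between 12 and 0 h (2.53% of all genes) and 18 between 24 and 0 h (3.03%). In bzip60-2 these were 7 (2.21%) and 21 (5.33%). XTH26 and AT5G19890 were lower and PRXCB, OSM34 and AT2G37130 higher at 24 h in both mutants under DMSO. PRXCB gained 1.72 in bzip28-2 and 1.77 in bzip60-2, and OSM34 gained 2.69 and 3.51, on the log2 scale.

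Lists of wall and secretory genes put these members among their families, and the counts below stand beside 0.581% of all genes called lower in bzip28-2 and 0.338% in bzip60-2 at 0 h, and 0.938% and 0.512% called higher. Of 75 class III peroxidases tested, 10 listed ones are members, and 12 were called lower in bzip28-2 and 5 in bzip60-2 at 0 h, with none called higher. Of 76 lipid transfer proteins 6 are members, with 9 and 5 called lower, and of 49 arabinogalactan proteins 5 are members, with 9 and 0 called lower. No expansin of 25 is a member, and 2 and 1 were called lower. Of 29 xyloglucan endotransglucosylases 3 are members, with 2 and 3 called lower. Among 307 cytosolic ribosomal proteins and 14 histones, 0 were called lower in either mutant at 0 h, with list medians between -0.15 and 0.03. None of 262 receptor-like kinases, 68 SAUR proteins and 143 secretory-pathway proteases is a member, with 1 and 1, 0 and 0, and 4 and 1 called lower. IRE1A, IRE1B, bZIP60, bZIP28 and bZIP17, the sensors and transcription factors of the unfolded protein response, are not members.

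ChIP-seq peaks of GFP-tagged bZIP28 and bZIP60 after Tm were assigned by the authors to 2 of the 100 members, EXT4 and the peroxidase AT5G64120, a share near the 2.25% of the genes tested that had a peak. All of their peaks were in the lists for 24 h. AT5G64120 had 2 bZIP28 peaks on chromosome 5 (TAIR10). The peak from 25658816 to 25659662, in the 3' untranslated region (3' UTR) class, had a MACS2 signal score of 6.53. The peak from 25660195 to 25660593, in the promoter class, had a score of 2.56. AT5G64120 also had 2 bZIP60 peaks in the promoter class. These ran from 25658297 to 25661342 with a score of 5.58 and from 25662103 to 25663328 with a score of 3.78. EXT4 had 1 bZIP28 peak, in the 3' UTR class, on chromosome 1 from 28894851 to 28895487 with a score of 5.63. Replicates were merged before deposit, so these scores have no error.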

How the data were processed

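RNA-seq covered 54 libraries (3 genotypes, 2 treatments, 3 time-points, 3 replicates each). Per the labels and the study's methods, the authors trimmed reads with cutadapt 1.8.1, aligned them to TAIR10 with TopHat2 2.0.14 and Bowtie2 2.2.4, and deposited FPKM from Cufflinks 1.3.0. Peak scores were deposited by the authors from MACS2 2.1.2, with replicates combined and peaks shared with DMSO removed. The members and gene lists were chosen with earlier results of these data known. Here, log2(FPKM + 1) was fitted with limma 3.58.1 in R 4.3.3 (trend) over the 21864 genes above 1 FPKM in at least 1 library, with 6 libraries per comparison, and p-values were adjusted over all of them by Benjamini-Hochberg. Tm against DMSO was called at an adjusted p under 0.01 and a log2 change over 1, and differences in response at an adjusted p under 0.05. Differences used Tm minus DMSO of the same replicate number, although these numbers did not pair the samples (r from -0.282 to 0.133), and a fit without them was an alternative. Proteins were translated from RefSeq coding sequences (TAIR10.1). Named genes were the 10 lowest responses, the 8 highest levels, the 5 lowest and 5 highest at 24 h in Col-0 and the 3 lowest adjusted p per comparison, and others were picked by role after their values were seen. The fit was tested on simulated data.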

Additional observations from a re-analysis of the deposited data

Results flagged for a closer look

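Differences between genotypes in the response itself were tested with limma on the per-replicate log2 fold changes. In bzip28-2 against Col-0 at 12 h, 26 members were called lower (2.09% of all genes) and 0 higher (1.19%). For bzip60-2 against Col-0 at 12 h, 14 were called, 12 lower (2.3%) and 2 higher (1.14%). Leaving out 1 pair of libraries gave 0 to 10 and 0 to 11 members at 12 h. The root markers EXPA7, EXPA18, COBL9 and PRP3, which are not members, were called lower in bzip28-2 at 12 h too. PYK10, SCR, SHR, WER and NRT2.1 were not. In bzip60-2 against Col-0 at 24 h, 1 member was called higher (0.00457%). In bzip28-2 against Col-0 at 12 h the lowest adjusted p belonged to AT4G25790 (difference -2.50), AT4G22666 (-2.68) and AT3G49960 (-2.92). In bzip60-2 against Col-0 at 12 h they were AT5G44568 (-2.48), AT4G20000 (-1.39) and AT4G12510 (-2.21). The pseudogene AT1G45236 differed by 6.56 in bzip60-2 against Col-0 at 24 h, a value that depends on the added 1 because its DMSO libraries were at 0.

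Differences between time-points within a mutant were tested in the same way. They covered 46 members in bzip28-2 at 12 h against 0 h and 25 at 24 h, and 24 and 28 members in bzip60-2. Of all genes in bzip28-2, 18.5% had a higher and 12.8% a lower response at 12 h, and 5.85% and 2.83% at 24 h. In bzip60-2 these shares were 14.8% and 7.32% at 12 h, and 9.58% and 1.55% at 24 h. The share of members was in several cases near that of all genes. In bzip28-2 the lowest adjusted p belonged to AT4G12510 (-2.84), AT5G44585 (4.60) and AT2G45220 (3.05) at 12 h, and to AT5G19890 (5.04), XTH26 (3.35) and AT3G16660 (2.93) at 24 h. In bzip60-2 they were PRXCB (3.39), AT4G12510 (-3.03) and AT5G46900 (-3.11) at 12 h, and XTH26 (4.26), PRXCB (4.65) and GLL22 (2.11) at 24 h.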

How the results depend on the processing

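The re-runs followed 211 calls on named genes, all made in the main fit on the same libraries. The call was kept in 1430 of 1603 re-runs with other settings and in 763 of 1266 with 1 library or pair left out. When the replicate block was added or removed, 125 of 211 kept it. None reversed under any alternative. Only calls already made were followed, so this does not test the directions of the members.

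Numbers of members called lower after Tm, in the order bzip28-2 0 h, bzip60-2 0 h and Col-0 24 h, were 28, 12 and 1 with no filter, 69, 60 and 5 at an adjusted p under 0.05, and 73, 66 and 4 with 1 fit over all libraries. With the replicate block they were 0, 0 and 0, as they were for bzip28-2 at 24 h (0), while bzip60-2 kept 19 at 12 h and 2 at 24 h. For bzip60-2 the count was 46 at 12 h and 33 at 24 h with 1 fit over all libraries, 30 at 24 h at an adjusted p under 0.05, and 53 at 0 h and 19 at 24 h with a mean of at least 1 FPKM. Scaling by the median ratio gave 4 for Col-0 at 24 h.

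Members that differed in response in bzip60-2 against Col-0 at 12 h numbered 4 with no filter, 25 with a mean of at least 1 FPKM, 28 at an unadjusted p under 0.01 and 22 with no replicate block. For bzip28-2 against Col-0 at 24 h they were 11, 42 and 26 under the last 3 of these. For bzip60-2 against Col-0 at 24 h they were 0 among protein-coding members, 11 at an unadjusted p under 0.01 and 7 with no replicate block, for bzip60-2 against bzip28-2 at 0 h 10 at an unadjusted p under 0.01, and for bzip28-2 at 24 h against 0 h 16 with no filter. In mock seedlings the counts, in the order bzip28-2 24 h, bzip60-2 12 h and bzip60-2 24 h, were 7, 3 and 13 with no filter, 33, 14 and 35 at an adjusted p under 0.05, 30, 16 and 36 with 1 fit over all libraries, and 0, 0 and 0 with the replicate block, which also gave 0 for bzip28-2 at 12 h. A mean of at least 1 FPKM gave 11 for bzip60-2 at 12 h. The shares of all genes under these settings are not given here, and the cause of these changes was not tested.

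With 1 library left out, the members called lower numbered 8 to 24, 38 to 46 and 9 to 42 in bzip28-2 at 0, 12 and 24 h, 3 to 12, 17 to 23 and 1 to 22 in bzip60-2, and 10 to 17 and 1 to 4 in Col-0 at 12 and 24 h. Members that differed in response numbered 0 to 10 and 0 to 0 in bzip28-2 against Col-0 at 12 and 24 h, 0 to 11 and 1 to 1 in bzip60-2 against Col-0, and 0 to 1 in bzip60-2 against bzip28-2 at 0 h. Against 0 h they were 34 to 46 and 5 to 32 in bzip28-2 at 12 and 24 h, and 20 to 25 and 13 to 26 in bzip60-2. In mock seedlings they were 2 to 8 and 2 to 11 in bzip28-2, and 0 to 2 and 2 to 23 in bzip60-2. Choosing the members without 1 library kept 78 to 92 of the 100, and other rules kept 82 to 98.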
